A study of Homo sapiens with 4 samples.

Results

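The keratin family was examined in RNA of OVCAR8 cells, a human line established from an ovarian cancer. Members were the protein-coding genes named KRT followed by a number and at most 1 letter A to C, which gave 55 of the 58735 genes in the deposited table. The 4 libraries fell into 2 groups of 2. Cells of the group shCON were labelled wild type and had a scrambled short hairpin RNA, and cells of the group shFAM49B had hairpins against FAM49B. Per the labels' protocols the lentiviral hairpin plasmids were lipofected and cells were harvested at 36 h, whereas the series' design text describes stable knockdown. Whether the knockdown cells were 1 clone, a selected pool or unselected is not given in the sources used here. FAM49B itself measured 7.41 and 7.60 FPKM (reads per kilobase of gene length, with a scaling for depth) in shCON and 1.06 and 1.02 FPKM in shFAM49B, which was 7.21-fold lower.

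Keratins are the intermediate filament proteins of epithelial cells. Every filament is built from a type I (acidic) and a type II (basic) chain, so the genes are used in pairs. KRT8 with KRT18, and often KRT19, forms the filaments of simple epithelia such as that covering the ovary. KRT5 with KRT14 marks the basal layer of stratified epithelia, KRT6, KRT16 and KRT17 are induced in activated or injured epidermis, and KRT1 with KRT10 replaces the basal pair as cells leave that layer.

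All 26 type II genes lay in a cluster on chromosome 12 (chr12:52168996-52952901, GRCh38, a span of 784 kb) together with KRT18, a type I gene, and the other type I genes lay on chromosome 17 (chr17:40654665-41624842, 970 kb). That placed 27 members on chromosome 12 and 28 on chromosome 17. The coding sequence of KRT18 had a median identity of 57.2% to the chromosome 17 members and of 48.5% to the other chromosome 12 members, and it was counted as type I here, as KRT18 is known to be. KRT9 was the 1 of 28 chromosome 17 members nearer to chromosome 12 members (49.0% against 46.4%) and was left as type I.

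Sequence decides how far reads of a family can be told apart, and the closest members were KRT6A, KRT6B and KRT6C. Their coding sequences of 1692 bases differed at 51 positions and were 97.5% to 98.5% identical in pairs, with identical runs of up to 349 bases. The 60 coding bases in which they differed most, all in exon 2 of 9, are shown on the coding strand, 5′ to 3′ (GENCODE 29, GRCh38), with the 9 differing positions in capitals. They lie at chr12:52491555-52491614 for KRT6A, chr12:52450439-52450498 for KRT6B and chr12:52472099-52472158 for KRT6C, all on the minus strand.
KRT6A: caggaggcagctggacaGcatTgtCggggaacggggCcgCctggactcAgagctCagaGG
KRT6B: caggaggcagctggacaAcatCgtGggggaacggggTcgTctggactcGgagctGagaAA
KRT6C: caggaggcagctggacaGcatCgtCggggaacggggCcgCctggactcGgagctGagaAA
How reads matching more than 1 gene were counted is not given in the sources used here, so the split of reads among these 3 genes is uncertain. The same holds for KRT81 and KRT86, which shared an identical run of 605 coding bases, and to a lesser degree for KRT14 and KRT16, which were 85.2% identical.

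Promoters of 34 of the 55 members were found in RefSeq (GRCh38.p14). The 30 bases from 35 to 6 before the start of transcription are shown for KRT5, which was much lower in shFAM49B, for KRT75, which was moderately lower, and for KRT10, which did not pass the test. Capitals mark the letters ATAAA, part of the TATA box. The stretches lie on the minus strand at chr12:52520400-52520429 for KRT5, chr12:52434377-52434406 for KRT75 and chr17:40822620-40822649 for KRT10.
KRT5: gaagggATAAAaagggggcatcaccgttcc
KRT75: gctcATAAAagccacgagaccagggctctc
KRT10: tcagtatATAAAggcttgtcactgtccttg
ATAAA, searched on both strands, stood in this stretch in 25 of the 34 keratin promoters and in 7.11% of the 35116 promoters in the table. The letters GGGCGG, a GC box, stood in the 200 bases before the start in 4 of 34 keratins against 40.1% of all promoters. TGANTCA, the site of AP-1 factors, stood there in 0 of 34 keratins against 5.38% of all promoters. Among members with at least 10 reads, the letters were not in this stretch in KRT4, KRT8 and KRT9, and the table's KRT8 entry is at an alternative upstream start. The other tested keratins had no promoter in the table.

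The whole table served as background. Recovered reads came to 15639559 to 16875353 per library, and 3 reads in a gene of 1 kb equalled 0.162 to 0.200 FPKM. Of the 13775 genes averaging 1 FPKM or more, which were tested, 2170 were called lower in shFAM49B and 3642 higher (limma, Benjamini-Hochberg adjusted p under 0.05). With values rescaled to TPM, calls lower came to 4362 and calls higher to 1597, and relative to recovered reads to 4173 and 1722. These scalings moved the median log2 fold change of all genes by -0.24 and -0.19. The levels of 1 gene relative to another do not depend on them, whereas small changes of single genes do.

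The abundant stratified keratins other than KRT10 fell, by 11.1-fold for KRT14 to 26.3-fold for KRT6A, and so did the simple keratin KRT19, while the simple pair KRT8 and KRT18 differed little between groups. Of the 55 members, 13 averaged 1 FPKM or more and were tested. Calls lower came to 11, against 15.8% of all tested genes, calls higher to 0, against 26.4%, and 2 members, KRT8 and KRT10, did not pass. Of these 13 genes, KRT16, KRT75, KRT1 and KRT80 were under 1 FPKM in shFAM49B and entered the test only through shCON, so their calls carry no weight as a count. The other 9 averaged 1 FPKM or more in both groups, and 7 of them were called lower, against 14.7% of all genes at that level. In all 13 both shCON libraries were above both shFAM49B libraries, as in 31.6% of all tested genes. KRT16, KRT75, KRT1 and KRT80 are among these 13, so this count too carries no weight as a share. In bulk RNA fewer cells of a type and less RNA per cell cannot be told apart.

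**Figure D1:**
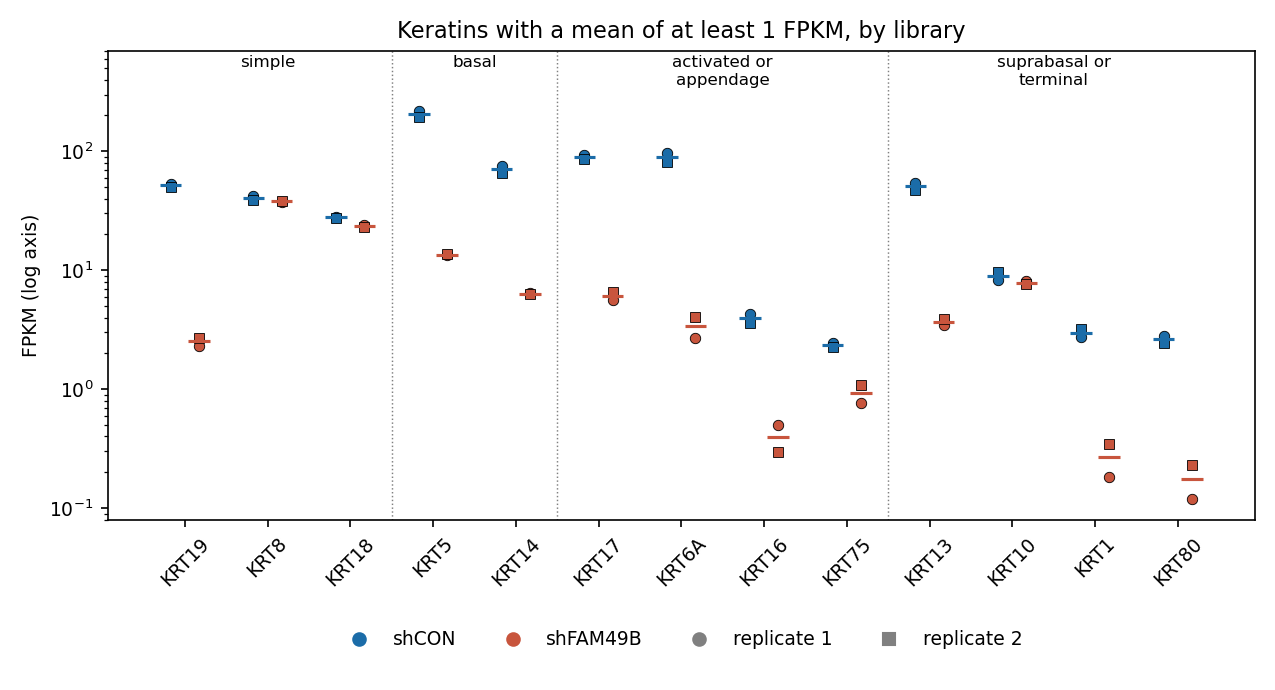
FPKM (log axis) of the 13 tested keratins in each library, grouped by class, with circles for replicate 1, squares for replicate 2 and bars at the group means. KRT5 sits near 207 FPKM in shCON and near 13.5 FPKM in shFAM49B, while KRT8, KRT18 and KRT10 lie close together in both groups.

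Among the simple keratins, KRT8, the type II chain of simple epithelia, measured 41.7 and 39.2 FPKM in shCON and 37.4 and 38.4 FPKM in shFAM49B. The shCON values were slightly higher and the groups did not overlap, but the difference did not pass the test (log2 fold change -0.09, SE 0.059, limma adjusted p = 0.271). Its partner KRT18 measured 28.0 and 27.7 FPKM in shCON and 24.1 and 23.2 FPKM in shFAM49B. Both shCON libraries were higher, and the 1.18-fold decrease passed narrowly (log2 fold change -0.23, SE 0.055, limma adjusted p = 0.0249). Leaving out any 1 of the 4 libraries ended the call for KRT18, with limma adjusted p from 0.0607 without shFAM49B replicate 1 to 0.104 without shFAM49B replicate 2. Under TPM and relative to recovered reads KRT8 was also called lower (log2 fold change -0.33 and -0.31), as was KRT10 (-0.41 and -0.36). All 13 tested keratins were then lower, against 31.7% and 30.3% of all genes. KRT16, KRT75, KRT1 and KRT80 entered only through shCON, so this count carries no weight as a share. KRT8 was lower under quantile normalization too (-0.32).

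KRT19, a type I simple keratin that lacks most of the usual tail domain, behaved unlike this pair. It measured 53.5 and 49.7 FPKM in shCON and 2.32 and 2.72 FPKM in shFAM49B. Every shCON value lay far above both shFAM49B values, a 20.5-fold decrease (log2 fold change -3.90, SE 0.082, limma adjusted p = 0.000166). KRT7, its usual type II partner in glandular epithelia, had 8 reads in shCON and 3 in shFAM49B. KRT20, of intestinal and urothelial cells, had 3 reads in shCON and 0 in shFAM49B. KRT23, a simple type I keratin, had 75 reads in shCON and 0 in shFAM49B, at least 21.4-fold lower against a floor of 3 reads over the group. The libraries of KRT7 overlapped between groups, and 3 reads in all say nothing of KRT20. Simple members therefore ranged from 1.07-fold lower for KRT8, which did not pass, to over 20-fold lower for KRT19 and KRT23.

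The basal pair held the highest keratin levels in shCON. KRT5, the type II basal chain, measured 219.4 and 193.9 FPKM in shCON and 13.3 and 13.6 FPKM in shFAM49B. Both control libraries stood well above both knockdown libraries, with a 15.4-fold difference (log2 fold change -3.84, SE 0.075, limma adjusted p = 0.000166). KRT14, its type I partner, measured 75.4 and 65.9 FPKM in shCON and 6.43 and 6.30 FPKM in shFAM49B, which was 11.1-fold lower (log2 fold change -3.28, limma adjusted p = 0.000166). The gap was many times the spread within either group. KRT15, the other basal type I chain and a marker of hair follicle stem cells, had 342 reads in shCON and 30 in shFAM49B, or 1.38 ± 0.293 and 0.141 ± 0.068 FPKM (SD, n = 2), and was under the level needed for the test.

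Among keratins of activated epidermis and of skin appendages, KRT6A had the largest fall of the 13 tested members. KRT6A measured 96.1 and 81.7 FPKM in shCON and 2.72 and 4.04 FPKM in shFAM49B, which was 26.3-fold lower (log2 fold change -4.37, SE 0.16, limma adjusted p = 0.000476). KRT17, a type I keratin of injured epidermis and many squamous tumours, measured 93.9 and 86.2 FPKM in shCON and 5.60 and 6.62 FPKM in shFAM49B. This 14.7-fold decrease passed the test (log2 fold change -3.68, limma adjusted p = 0.000166), and neither group came near the other. KRT16, partner of KRT6A, was at 4.26 and 3.63 FPKM in shCON and at 0.501 and 0.297 FPKM in shFAM49B, which was 9.89-fold lower (log2 fold change -1.82, limma adjusted p = 0.00178). KRT75, of the companion layer of the hair follicle, fell least in this class, from 2.42 and 2.26 FPKM to 0.758 and 1.09 FPKM (2.53-fold, limma adjusted p = 0.00997). KRT75 lost its call without shCON replicate 1 (limma adjusted p = 0.0551) and with no filter on low values (0.0528). KRT6B had 75 reads in shCON and 10 in shFAM49B, and KRT6C 20 and 1, a pooled ratio of 17.1 with a 95% counting interval of 2.74 to 710. The 3 KRT6 genes were thus all lower, but given their sequences some KRT6B and KRT6C reads may belong to KRT6A.

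Suprabasal and terminal keratins split. KRT13, the type I chain of suprabasal mucosal epithelium, measured 53.6 and 47.6 FPKM in shCON and 3.47 and 3.90 FPKM in shFAM49B, which was 13.7-fold lower (log2 fold change -3.46, limma adjusted p = 0.000166). Its partner KRT4 was far less abundant, with 115 reads in shCON and 7 in shFAM49B. KRT1, the type II chain of suprabasal epidermis, measured 2.76 and 3.20 FPKM in shCON and 0.183 and 0.349 FPKM in shFAM49B, which was 11.2-fold lower (log2 fold change -1.65, limma adjusted p = 0.00224). KRT80, a type II keratin linked to terminal differentiation, was at 2.78 and 2.46 FPKM in shCON and at 0.12 and 0.23 FPKM in shFAM49B, which was 15.0-fold lower (log2 fold change -1.62, limma adjusted p = 0.00232). KRT10, partner of KRT1, measured 8.24 and 9.66 FPKM in shCON and 8.06 and 7.67 FPKM in shFAM49B (log2 fold change -0.16, SE 0.089, limma adjusted p = 0.195). The lower shCON value of KRT10 was only just above the higher shFAM49B value. KRT10 overlaps TMEM99 on the opposite strand, which was higher in shFAM49B (8.47 ± 0.025 and 11.2 ± 1.38 FPKM, limma adjusted p = 0.029, and 0.221 under TPM), and whether reads were assigned by strand is not given in the sources used here.

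Low levels shrink a difference on the log2(FPKM + 1) scale, so folds are also given. By ratio of mean FPKM, 8 keratins were called and at least 10-fold lower: KRT6A, KRT19, KRT5, KRT80, KRT17, KRT13, KRT1 and KRT14. Of all 13775 tested genes 67, or 0.486%, met the same 2 conditions. KRT1 and KRT80 were tested through shCON alone, so the count with them carries no weight. Without such genes the count was 6 of 9 keratins, against 0.0857% of the 12842 genes averaging 1 FPKM or more in both groups (11 genes, the 6 keratins included).

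In shCON the order of levels was KRT5, then KRT17 and KRT6A, then KRT14, then KRT19 and KRT13, then KRT8, KRT18 and KRT10. The values of KRT17 and KRT6A overlapped, as did those of KRT19 and KRT13. In shFAM49B the order was KRT8, KRT18, KRT5 and KRT10, followed by KRT14 and KRT17, whose values overlapped, and then by KRT13, KRT6A and KRT19. KRT13 overlapped KRT6A, and the higher KRT19 value equalled the lower KRT6A value after rounding. KRT5 thus moved from above to below KRT8: the ratio of KRT5 to KRT8 was 5.26 and 4.95 in shCON and 0.355 and 0.354 in shFAM49B. The rank of KRT8 depends on gene length, because the deposited length of 6881 bases is 3.24 times that of its principal transcript. Over the principal transcripts KRT8 was at 131 ± 5.75 FPKM in shCON and 123 ± 2.22 FPKM in shFAM49B (SD, n = 2), and the ratio of KRT5 to KRT8 was 2.76 and 2.59 against 0.186 and 0.186.

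**Figure D2:**
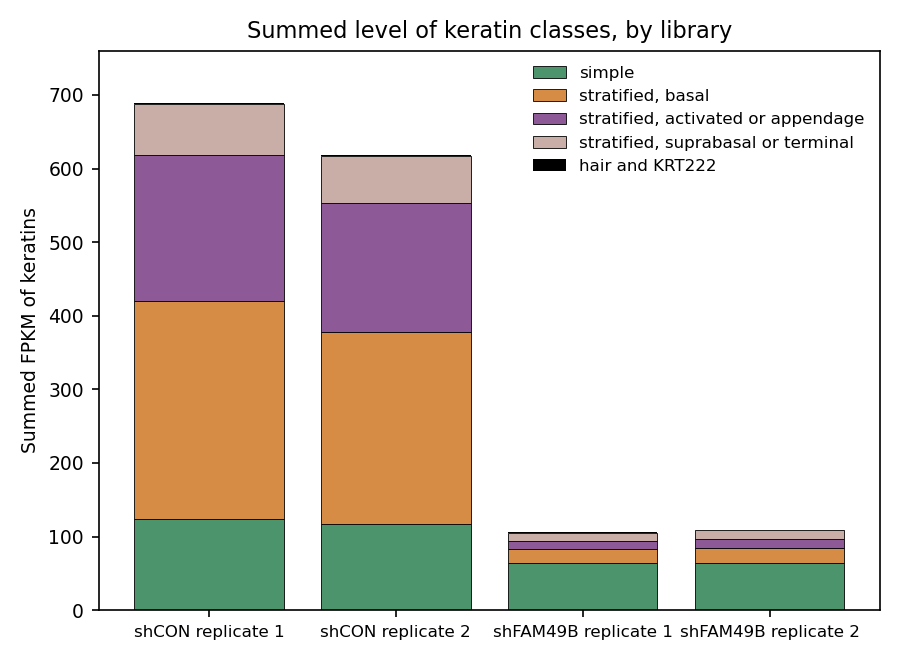
Stacked bars give the summed FPKM of each keratin class in each library. The bars reach 688.8 and 618.8 FPKM in shCON and 106.1 and 109.6 FPKM in shFAM49B, where the simple class makes up the largest part.

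Summed over all members, keratins came to 654 ± 49.5 FPKM in shCON and 108 ± 2.46 FPKM in shFAM49B (SD, n = 2), 6.06-fold lower. Stratified keratins together came to 563.2 and 500.4 FPKM against 41.6 and 44.7 FPKM, 12.3-fold lower. The basal class came to 278.7 ± 25.0 FPKM against 19.96 ± 0.194 FPKM, the activated or appendage class to 186 ± 16.2 FPKM against 11.0 ± 1.89 FPKM, and the suprabasal or terminal class to 66.8 ± 3.17 FPKM against 12.2 ± 0.159 FPKM (SD, n = 2). The simple class came to 120.7 ± 4.79 FPKM against 64.1 ± 0.353 FPKM, 1.88-fold lower. KRT8 and KRT18 alone gave 68.3 ± 1.99 FPKM and 61.6 ± 0.035 FPKM, so most of that difference was KRT19. All these sums were higher in both shCON libraries than in both shFAM49B libraries. For each, the exact permutation test gave p = 0.33 (2-sided), the smallest value that 2 libraries against 2 allow.

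As a share of keratin FPKM, the simple class made up 18.0% and 19.0% in shCON and 60.2% and 58.7% in shFAM49B. KRT8 and KRT18 made up 10.1% and 10.8% of the pool in shCON and 58.0% and 56.2% in shFAM49B, with the groups far apart (exact permutation p = 0.33, 2-sided, for both shares). Over principal transcript lengths the simple share was 24.6% ± 0.822 in shCON and 73.0% ± 0.791 in shFAM49B (SD, n = 2). The suprabasal or terminal share was 10.2% ± 0.289 and 11.3% ± 0.111, with KRT10 its main member in shFAM49B. Keratins as a whole took 0.262% ± 0.017 of all FPKM in shCON and 0.0365% in both shFAM49B libraries.

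Type I and type II chains were lower by nearly the same factor in FPKM. Type II genes came to 347 ± 29.95 FPKM in shCON and 56.7 ± 2.48 FPKM in shFAM49B, which was 6.12-fold lower, and type I genes to 307 ± 19.6 and 51.2 ± 0.014 FPKM, 5.998-fold lower (SD, n = 2). The type II share was 53.4% and 52.6% in shCON and 51.7% and 53.3% in shFAM49B, ranges that overlap (exact permutation p = 0.667, 2-sided). This balance depended on the lengths used. Over principal transcripts the type II share was 53.9% ± 0.462 in shCON and 63.0% ± 0.646 in shFAM49B, and as a share of keratin reads it was 63.3% ± 0.425 and 69.5% ± 0.580 (SD, n = 2).

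**Figure D3:**
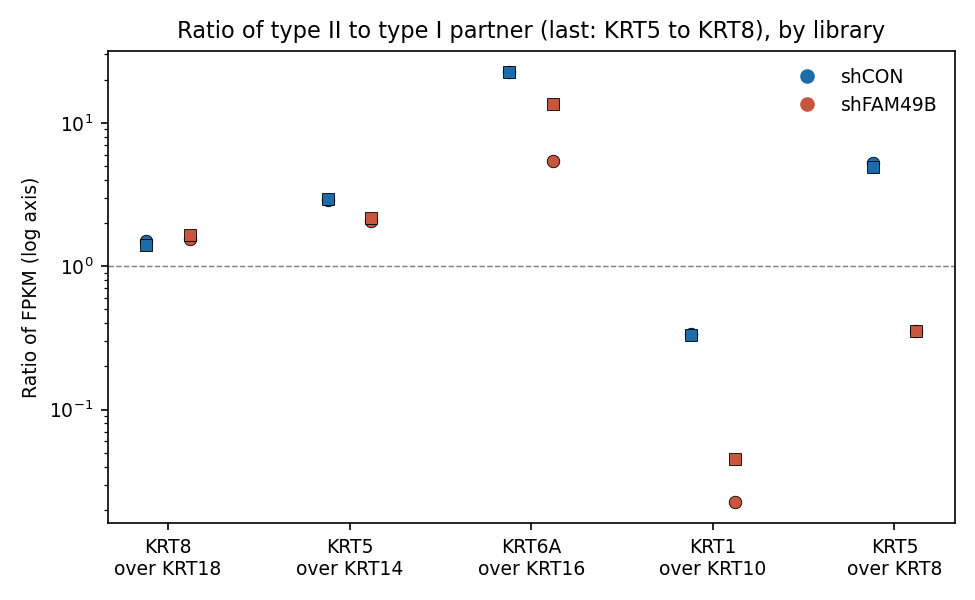
Ratio of FPKM (log axis) of each type II keratin to its type I partner, and of KRT5 to KRT8, in each library, where both averaged 1 FPKM or more. KRT8 over KRT18 stays between 1.41 and 1.66, while KRT1 over KRT10 is at least 0.331 in shCON and at most 0.0455 in shFAM49B.

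Ratios within pairs show which partners moved together. KRT8 over KRT18 was 1.49 and 1.41 in shCON and 1.55 and 1.66 in shFAM49B, a difference of 0.155 between means whose SDs were 0.052 and 0.073. KRT5 over KRT14 was 2.91 and 2.94 in shCON and 2.07 and 2.16 in shFAM49B, 1.39-fold lower. KRT6A over KRT16 was 22.5 in both shCON libraries and 5.43 and 13.6 in shFAM49B. Both shFAM49B ratios were lower but far apart, and they rest on 30 reads of KRT16 in all. KRT1 over KRT10 was 0.335 and 0.331 in shCON and 0.0228 and 0.0455 in shFAM49B: the type II partner fell and the type I partner did not pass the test. None of the ratios overlapped between groups, and with 2 libraries each the exact permutation test could not go below p = 0.33 (2-sided). For KRT7 with KRT19, KRT5 with KRT15, KRT6B with KRT17, KRT4 with KRT13, KRT3 with KRT12, KRT2 with KRT10, KRT81 with KRT31 and KRT86 with KRT34, at least 1 partner was under 1 FPKM and no ratio was formed.

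**Figure D4:**
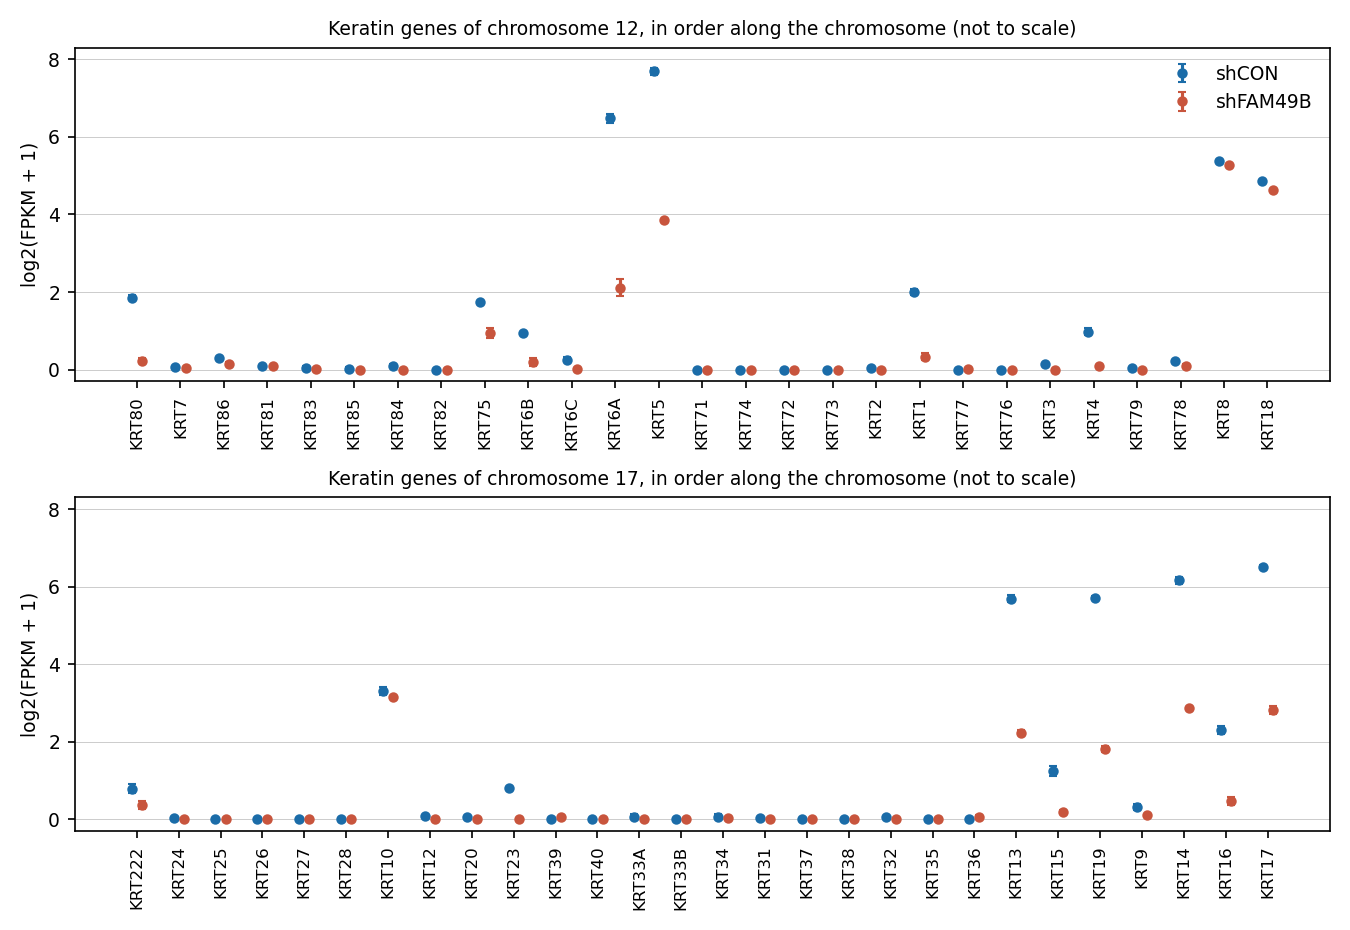
Mean log2(FPKM + 1) per group for every member, in order along chromosome 12 (top) and chromosome 17 (bottom), with bars spanning the 2 libraries. Genes of high level in shCON stand in a few short stretches among genes at or near 0, and KRT8, KRT18 and KRT10 lie close together in both groups.

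Members of high level in shCON stood in a few short stretches of both clusters. On chromosome 12, KRT6A and KRT5 stand next to each other and were both strongly lower, followed by 4 inner root sheath genes with no read, and KRT8 and KRT18 close the cluster. KRT8 and KRT18 overlap on opposite strands at their ends in the annotation, so reads there could be counted for either. On chromosome 17, KRT13, KRT15, KRT19, KRT14, KRT16 and KRT17 lie within the last 7 members, with KRT9 among them, and all but KRT9 were at least 9.79-fold lower, the value for KRT15. KRT10, the 1 abundant keratin of chromosome 17 outside this stretch, did not pass the test. Tested protein-coding neighbours outside the clusters did not share 1 direction. EIF4B, the nearest tested gene beyond the KRT18 end, was higher (85.4 ± 4.17 and 173 ± 1.67 FPKM, SD, n = 2, limma adjusted p = 0.00119), and TNS4, the nearest tested gene before KRT222, was lower (4.67 ± 0.155 and 0.224 ± 0.083 FPKM, limma adjusted p = 0.0011). EIF1, the nearest tested gene beyond KRT17, was higher (143 ± 8.04 and 180 ± 7.23 FPKM, limma adjusted p = 0.0148), though not under TPM (limma adjusted p = 0.295) and in the other direction under quantile normalization (log2 fold change -0.14).

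Of the 42 members not tested, 15 had no read in any library. They were all 8 keratins of the inner root sheath of the hair follicle (KRT25, KRT26, KRT27, KRT28, KRT71, KRT72, KRT73 and KRT74), 6 hair keratins (KRT33B, KRT35, KRT37, KRT38, KRT40 and KRT82) and KRT76 of the palate and gum. A count of 0 allows a level of up to 0.0543 to 0.136 FPKM, depending on the gene and the library, by 3 reads. The 17 hair keratins had no value above 0.248 FPKM. A further 17 members had 1 to 9 reads over the 4 libraries, 46 reads in shCON and 11 in shFAM49B in all. Among them 11 had reads in shCON only, KRT36, KRT39 and KRT77 in shFAM49B only, and KRT34, KRT81 and KRT83 in both. Altogether 37 members had a read in shCON and 28 in shFAM49B. Over all 58735 genes, counted by library, 27158 and 27360 had reads in shCON and 25209 and 25039 in shFAM49B.

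The other 10 members had at least 10 reads: KRT15, KRT6B, KRT4, KRT222, KRT23, KRT86, KRT9, KRT78, KRT6C and KRT7. In 9 of them, all but KRT7, both shCON libraries were above both shFAM49B libraries, against 41.1% of untested genes with at least 10 reads. Of the 10, 6 had at least 10 reads in shCON and fewer in shFAM49B, so neither this count nor the next carries weight as a share. Limma with voom weights on the recovered reads of all genes with at least 10 reads called KRT15, KRT6B, KRT4, KRT222, KRT23 and KRT6C lower, against 17.8% of the genes it tested, and none higher. KRT222, a short type I keratin, had 81 reads in shCON and 29 in shFAM49B (voom adjusted p = 0.0229). KRT86 of hair had 20 and 8 reads, KRT9 of palm and sole epidermis 20 and 5, and KRT78 18 and 7, and none of these 3 passed. The gene KRT86 overlaps KRT7 and KRT81 in the annotation.

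**Figure D5:**
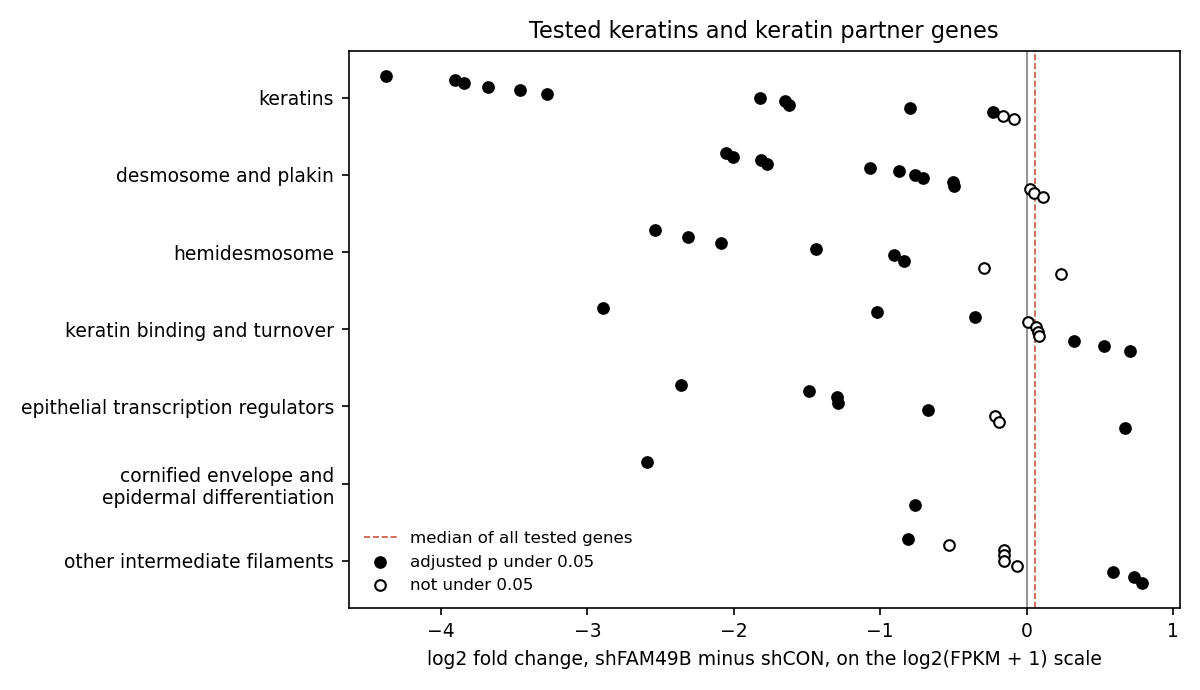
Log2 fold change (shFAM49B minus shCON, on the log2(FPKM + 1) scale) of each tested keratin and keratin partner gene, filled where the adjusted p was under 0.05; the dashed line is the median of all tested genes, 0.05. Desmosome and hemidesmosome genes that pass lie left of 0, and other intermediate filaments lie on both sides.

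Keratin filaments are anchored to neighbouring cells at desmosomes, through plakins such as desmoplakin, and to the basement membrane at hemidesmosomes. A list of 75 such partner genes, regulators, differentiation genes and other intermediate filaments was followed beside the keratins. Of its 50 tested members, 27 were lower (15.8% of all tested genes), 7 higher (26.4% of all) and 16 did not pass, with a median log2 fold change of -0.52 against 0.05 over all tested genes. Of these 50 genes, 12 entered through shCON alone. Among the 38 with at least 1 FPKM in both groups, 16 were lower and 7 higher, against 14.7% and 27.4% of all genes at that level.

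Desmosome and plakin genes gave 10 lower of 13 tested and 0 higher, and 6 lower of the 9 with at least 1 FPKM in both groups (14.7% of all such genes). The largest falls were those of the plakophilins PKP1 (log2 fold change -2.05, limma adjusted p = 0.0011) and PKP3 (-2.01, limma adjusted p = 0.00107), which tie desmosomal cadherins to plakins, and of the cadherin DSG3 (-1.81, limma adjusted p = 0.00184). DSG2, DSC2, DSP, JUP and PKP2, which simple epithelia also use, were picked after their values were seen and are not all such genes. The cadherins DSG2 and DSC2 were lower (-0.71, limma adjusted p = 0.00497, and -0.50, limma adjusted p = 0.0291), while DSP, JUP and PKP2 did not pass, with log2 fold changes of 0.05, 0.11 and 0.02. Under TPM these were -0.20, -0.13 and -0.21, and JUP was called lower under quantile normalization (-0.22, limma adjusted p = 0.021). Hemidesmosome genes gave 6 lower of 8 tested, 4 of 6 among those with at least 1 FPKM in both groups (14.7% of all such genes). COL17A1 (-2.54, limma adjusted p = 0.000778), ITGB4 (-2.31, limma adjusted p = 0.000943) and LAMB3 (-2.09, limma adjusted p = 0.000943) fell most in this group. PKP1, PKP3, DSG3 and COL17A1 were under 1 FPKM in shFAM49B.

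Keratin-binding and turnover genes went both ways, with 3 lower and 3 higher of 10 tested, against 15.8% and 26.4% of all tested genes. SFN (14-3-3 sigma, which binds phosphorylated KRT17) fell by 2.89 on the log2 scale (limma adjusted p = 0.000217), while YWHAE, another 14-3-3 protein, rose by 0.71 (limma adjusted p = 0.00173). FAM83H, which recruits a casein kinase to keratin filaments, fell by 1.02 (limma adjusted p = 0.00119). Of 15 epithelial transcription regulators 8 were tested, with 5 lower and 1 higher (15.8% and 26.4% of all tested genes). Among the 5 with at least 1 FPKM in both groups, 2 were lower and 1 higher (14.7% and 27.4% of all such genes). TP63, the master regulator of basal keratinocytes and an activator of KRT5 and KRT14, measured 6.07 and 5.08 FPKM in shCON and 0.289 and 0.260 FPKM in shFAM49B (20.3-fold, limma adjusted p = 0.00104). ESRP1, an epithelial splicing factor, and EHF, an epithelial ETS factor, fell by 1.49 (limma adjusted p = 0.0038) and 1.30 (0.0043). All 3 were under 1 FPKM in shFAM49B. Only 2 of 12 cornified envelope genes reached the test, SPRR1B and CSTA, both lower and both through shCON alone.

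Of 14 other intermediate filament genes 9 were tested, with 3 higher and 1 lower, counts near the shares over all tested genes (26.4% and 15.8%). VIM, the vimentin of mesenchymal and many cultured cells, measured 85.9 and 81.8 FPKM in shCON and 123.9 and 128.9 FPKM in shFAM49B, with no overlap (log2 fold change 0.59, limma adjusted p = 0.0025). The neurofilament genes NEFL and NEFM rose by 0.79 and 0.73 (limma adjusted p = 0.00167 and 0.00246), and NES fell by 0.81 (limma adjusted p = 0.00316).

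Among the other protein-coding genes whose groups did not overlap, the 10 most like KRT5 in the size of their fall on the log2(FPKM + 1) scale over the 4 libraries were S100A2, S100A6, TMSB4X, SFN, ZBTB7C, S100A14, RHOD, FGFBP1, SPRR1B and S100A16. Their log2 fold changes ran from -3.08 for S100A2 to -2.57 for S100A16, smaller on that scale than that of KRT5 (-3.84). By ratio of mean FPKM, RHOD was 47.0-fold and TMSB4X 19.1-fold lower, more than the 15.4-fold of KRT5, and both were under 1 FPKM in shFAM49B.

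Markers of cell types were read beside these results. Of 10 basal squamous genes other than keratins, 5 of which are also on the partner list, 7 were tested, 6 of them through shCON alone. All 7 were lower, against 15.8% of all tested genes, a count that carries no weight as a share. DSC3, the 1 tested gene with at least 1 FPKM in both groups, was lower (11.5 and 6.35 FPKM). The list summed to 43.4 to 49.4 FPKM in shCON and 8.81 to 9.75 FPKM in shFAM49B. Of 8 ovarian serous markers 4 were under 1 FPKM: SOX17 was at 0 in every library, MUC16 at 0.0019 and 0.0015 FPKM, PAX8 at 0.096 and 0.027 FPKM, and MSLN at 0.211 and 0.078 FPKM (group means). That list summed to 10.2 FPKM in shCON and to 7.01 to 7.09 FPKM in shFAM49B. Of 4 tested, 2 were lower and 1 higher (15.8% and 26.4% of all tested genes). EPCAM, an adhesion molecule of simple epithelia, was 12.4-fold lower and tested through shCON alone, MECOM was lower (3.83 and 2.77 FPKM), and EMX2 was higher (1.67 and 3.10 FPKM, limma adjusted p = 0.0099). Of 10 stromal, endothelial and blood markers none reached 1 FPKM, with sums of 1.30 to 1.36 and 0.472 to 0.715 FPKM. The 5 genes listed for the embryonic kidney line HEK293, IRS4, LIN28B, NEFL, NEFM and PAX2, summed to 91.5 to 96.1 FPKM in shCON and to 269 to 284 FPKM in shFAM49B. Calls higher came to 3 of 5, against 26.4% of all tested genes: NEFL, NEFM and IRS4, the last at 29.3 and 175 FPKM. LIN28B (9.10 and 7.47 FPKM) and PAX2 (1.91 and 2.12 FPKM) did not pass. Genes of these lists moved with the keratins, against them or little, and their part in the result was not tested.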

How the data were processed

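Total RNA was the input to NEBNext Ultra libraries, per the labels' protocols. Per the file headers, the authors deposited FPKM per gene beside its position, length and biotype. No aligner or counter is given in the sources used here. Mouse builds (GRCm38, mm10) are named in the submitters' processing notes, but all 58735 identifiers are human and present in GENCODE 29, and all 55 keratins have its start and end. FPKM times length gave whole reads for 100% of values (tolerance 0.001), and the implied denominators over those reads were 1.08 and 1.10 (shCON) and 0.941 and 0.919 (shFAM49B), so the deposited values had been scaled between libraries.

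Genes averaging 1 FPKM or more were tested on log2(FPKM + 1) with limma 3.58.1 (R 4.3.3, mean-variance trend, 2-sided, Benjamini-Hochberg over all 13775 tested genes, threshold 0.05, 2 residual and 3.32 prior degrees of freedom). Folds are ratios of mean FPKM. Nothing in the labels gives separate cultures for the libraries of a group. The p-values then measure only spread among these 4 libraries, possibly technical. Replicates differed by a chi-square of 3.90 and 3.48 per gene against 48.9 to 56.1 between groups, so each counted as 1 sample. On simulated reads (13805 genes fitted, 50 genes changed at each fold) the test recovered 8% of genes changed 1.25-fold, 60% at 1.5-fold, 80% at 2-fold and 94% at 4-fold, and called 15 unchanged genes. In the data 5812 of 13775 genes were called, which makes the adjusted threshold less strict, so these shares need not hold there.

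Keratin classes, pairs, partner genes and markers, and the HEK293 genes in particular, were chosen with earlier results of these data known, so that no list is independent support. Named were keratins of at least 1 FPKM, those with at least 10 recovered reads, the 3 called genes of largest change per list or partner group, and the 10 genes most like KRT5; other genes named for contrast (such as VIM's group, DSG2, DSC2, DSP, JUP, PKP2, EPCAM, EMX2, MECOM, the absent ovarian markers and the cluster neighbours) were chosen after their values were seen. Coding sequences and principal transcripts came from GENCODE 29, aligned pairwise with biopython 1.88. Counting intervals are 95% exact intervals and, like the floor of 3 reads, cover counting error only. Alternatives were other scalings, filters, pseudocounts, lengths and each library left out.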

Additional observations from a re-analysis of the deposited data

How the results depend on the processing

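With 2 libraries a group, depth limits what can be said of keratins under 1 FPKM. On simulated reads the test missed most genes given the smallest fold, but this need not hold in the data. In the main fit KRT18 was called at 1.18-fold lower, while KRT10 at 1.14-fold and KRT8 at 1.07-fold lower did not pass. No keratin was called higher under any of the settings run, and 167 of 178 values of the 13 tested keratins under other settings kept direction and side of the threshold, with 6 calls lost (KRT18 and KRT75) and 5 gained (KRT8 and KRT10). Calls over all genes fell from 5812 to 3563 with no filter and to 3151 to 4024 with 1 library left out. Keratins called lower numbered 7 of 9 tested with a mean of at least 5 FPKM (all genes: 1322 of 7756). By voom with at least 10 reads they numbered 17 of 23 (all genes: 3892 of 21873). The voom count carries no weight as a share, since some of its members entered mainly through shCON. Partner genes called lower numbered 13 of 30 at 5 FPKM and 43 of 70 by voom with at least 10 reads, to be read against the same counts over all genes. The difference in simple share, 41.0 percentage points, was 50.1 points in reads, 48.4 points over principal transcripts and 40.2 to 41.7 points with 1 library left out. The difference in type II share, -0.50 points, changed sign in reads (6.19), over principal transcripts (9.17), without near-identical coding sequences (5.33) and with KRT18 counted by chromosome (17.2), and ran from -1.27 to 0.279 with 1 library left out, positive without shFAM49B replicate 1. The cause of these shifts was not tested.

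The labels only number the replicates and state no pairing. Deviations of same-numbered libraries correlated at r = -0.01 over 13775 genes, so no shared shift was seen, but this cannot settle whether they were paired. With a replicate block 5465 genes were called, 2036 lower and 3429 higher. Keratins then came to 11 lower and 0 higher, and partner genes to 27 lower and 6 higher. Some of these members entered the test only through shCON. Alternatives chosen after seeing the data were voom, principal transcript lengths and the removal of near-identical genes. The planned edgeR and DESeq2 fits were not run, since the unit is FPKM, nor was protein identity, for which coding sequence identity stood in.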

Other observations

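Keratin pseudogenes, processed or duplicated copies of keratin genes that give no keratin, were counted apart from the 55 members. The table held 147, of which 55 had reads, 597 in shCON and 376 in shFAM49B. Copies of KRT8 numbered 50 and drew 4.18 reads per 100 reads of KRT8 in shCON and 3.82 in shFAM49B. Copies of KRT18 numbered 67 and drew 3.09 and 3.08 reads per 100 reads of KRT18. The ratio of copy reads to gene reads was therefore nearly the same in both groups.

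KRT8P39 had 6 and 7 reads in shCON and 27 and 25 in shFAM49B (limma with voom weights on recovered reads, log2 fold change 2.14, adjusted p = 0.00364), while KRT8 did not pass; the difference between copy and gene was not tested. KRT8P12 measured 3.27 and 2.51 FPKM in shCON and 1.82 and 1.21 FPKM in shFAM49B (limma adjusted p = 0.0331). KRT16P2 had 15 and 34 reads in shCON and 0 and 1 in shFAM49B, a pooled ratio of 42.0 with a 95% counting interval of 7.19 to 1692, in the direction of KRT16. These 3 copies were chosen after their values were seen, and how reads shared with the parent gene were counted is not given in the sources used here.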
